A study of Homo sapiens with 6 samples.

Results

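The TRIM family comprises proteins built on the tripartite motif, in which a RING domain, B-box zinc fingers and a coiled coil follow one another. All protein-coding genes whose symbol is TRIM followed by a number and at most 1 letter were taken as members, which gave 73 of the 58735 genes in the count table. This rule uses names and not expression, although earlier results of these data were known when the family was chosen. Of the 73 members, 49 had enough reads to be tested, among 17574 genes tested in all.

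The RING domain of most TRIM proteins recruits an E2 enzyme and passes ubiquitin to a substrate, which can be degraded or altered in activity. The coiled coil pairs the proteins, and the C-terminal domain, most often a PRY-SPRY domain, selects the substrate. TRIM proteins are best known for restricting viruses and for tuning innate immune signalling, and TRIM28 is the corepressor that KRAB zinc finger proteins bring to chromatin.

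RNA sequencing compared 3 libraries of colorectal cancer cells with CNOT7 knockdown and 3 libraries of the corresponding control. CNOT7 is a deadenylase of the CCR4-NOT complex, which shortens poly(A) tails and so limits mRNA lifetime. The labels name the line SW480, whereas the paper's text names HCT116 for its RNA sequencing of a CNOT7 knockdown, and both are epithelial lines from colorectal carcinomas. The knockdown was stable and made with shRNA, for which the methods describe a lentiviral vector, and neither group received any treatment according to the labels. Which shRNA the knockdown libraries carry, and whether they stem from 1 stable line or from several, is not settled by the sources used here. Nothing states whether the 3 libraries of a group came from separate cultures, so the p-values measure the spread between these libraries, which may be technical.

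Assigned counts ranged from 23788451 to 29104872 per library. CNOT7 itself was at 169, 191 and 176 CPM (counts scaled to library size) in the control libraries and at 43.4, 47.2 and 38.6 CPM in the knockdown libraries, which left 24.1% of the control level (log2 fold change -2.05, SE 0.0734, adjusted p = 2.64e-12). Of 11 colorectal epithelial markers, 7 were at or above 1 CPM in every control library, with EPCAM at a mean of 212 CPM and CDX2 at 41.4 CPM. KRT20 and CDX1, also colorectal epithelial markers, were at or near 0. The sum of the 11 markers was between 5554 and 5972 CPM in the control libraries and between 5133 and 5684 CPM in the knockdown libraries, so that the groups overlapped. Single markers differed in direction, with higher means with knockdown for CDH1 (23.6 against 33.5 CPM) and VIL1 (19.9 against 32.7 CPM) and lower means for KRT19 (720 against 637 CPM) and KRT8 (2750 against 2481 CPM). The summed markers of blood and of muscle stayed below 1 CPM in each library. Those of fibroblasts were between 7.39 and 9.70 CPM and overlapped between the groups, with DCN at 0 in every library, and those of endothelium were between 1.56 and 2.22 CPM in the control libraries and between 2.62 and 3.33 CPM in the knockdown libraries. The part of these marker differences in the TRIM values was not tested.

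TRIM21 is the member that the study follows, and TRIM28 is another that it names. The 300 bases of RefSeq sequence around the TRIM21 start site (most of them before it, GRCh38.p14, minus strand, chr11:4393653-4393952) are shown with the interferon-response motif GAAANNGAAA, searched on both strands, in capitals, where overlapping matches run together. The corresponding window of TRIM5 (minus strand, chr11:5685025-5685324), a retroviral restriction factor encoded nearby, holds this motif on the opposite strand and is shown for comparison.
TRIM21: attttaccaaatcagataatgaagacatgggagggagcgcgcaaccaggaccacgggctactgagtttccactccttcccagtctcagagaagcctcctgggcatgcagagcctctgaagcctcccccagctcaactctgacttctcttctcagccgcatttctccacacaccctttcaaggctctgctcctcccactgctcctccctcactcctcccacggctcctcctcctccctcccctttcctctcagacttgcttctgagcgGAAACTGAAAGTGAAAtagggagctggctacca
TRIM5: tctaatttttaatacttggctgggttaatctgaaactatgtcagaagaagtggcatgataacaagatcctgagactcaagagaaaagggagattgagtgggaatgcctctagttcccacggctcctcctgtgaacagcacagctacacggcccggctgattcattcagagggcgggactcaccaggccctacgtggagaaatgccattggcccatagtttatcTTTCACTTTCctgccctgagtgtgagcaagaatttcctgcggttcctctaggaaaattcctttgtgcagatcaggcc
The motif was present in 8 of the 38 tested members with a RefSeq promoter entry (any entry of the gene), or 21.1%. Among all 27305 genes with an entry, expressed or not, the share was 4.38%. With the members that were not tested, the motif was present in 10 of 56 members (17.9%). Counted per entry, the shares were 14.8% for the tested members and 3.57% for all entries. The 8 tested members were TRIM2, TRIM5, TRIM14, TRIM16, TRIM21, TRIM26, TRIM44 and TRIM69. Their log2 fold changes with CNOT7 knockdown ran from 0.02 for TRIM14 to 0.22 for TRIM69, and the smallest adjusted p among them was 0.119, for TRIM69. A letter match describes the window and does not show a bound site.

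To ask how large a share of the family is expressed in these cells, levels were compared per kilobase of exon (RPKM, the CPM divided by gene length). TRIM28 had the highest level, with a control mean of 170 ± 5.89 RPKM (SD, n = 3). It was followed by TRIM4 at 20.4 ± 0.321 RPKM. TRIM56, an antiviral ligase, was at 19.8 ± 0.638 RPKM. TRIM29, a member without a RING domain that is typical of stratified epithelium, was at 18.8 ± 1.02 RPKM, and TRIM44, another member without a RING domain, was at 14.7 ± 0.503 RPKM. TRIM2, a ligase of neurons that follows next, was at 14.6 ± 0.988 RPKM. The control ranges of TRIM4, TRIM56 and TRIM29 lay close together or overlapped, so their order is not resolved, and neither is that of TRIM44 and TRIM2, whereas TRIM28 stood apart from all other members. The 5 genes with the highest control means held 55.2% of the summed RPKM of the family, and TRIM28 alone held 38.5%. In total, 40 members reached 1 RPKM in the control mean, and the median of the tested members was 3.44 RPKM. The family sum was between 432 and 447 RPKM in the control libraries and between 430 and 449 RPKM in the knockdown libraries, so that the groups overlapped.

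**Figure D1:**
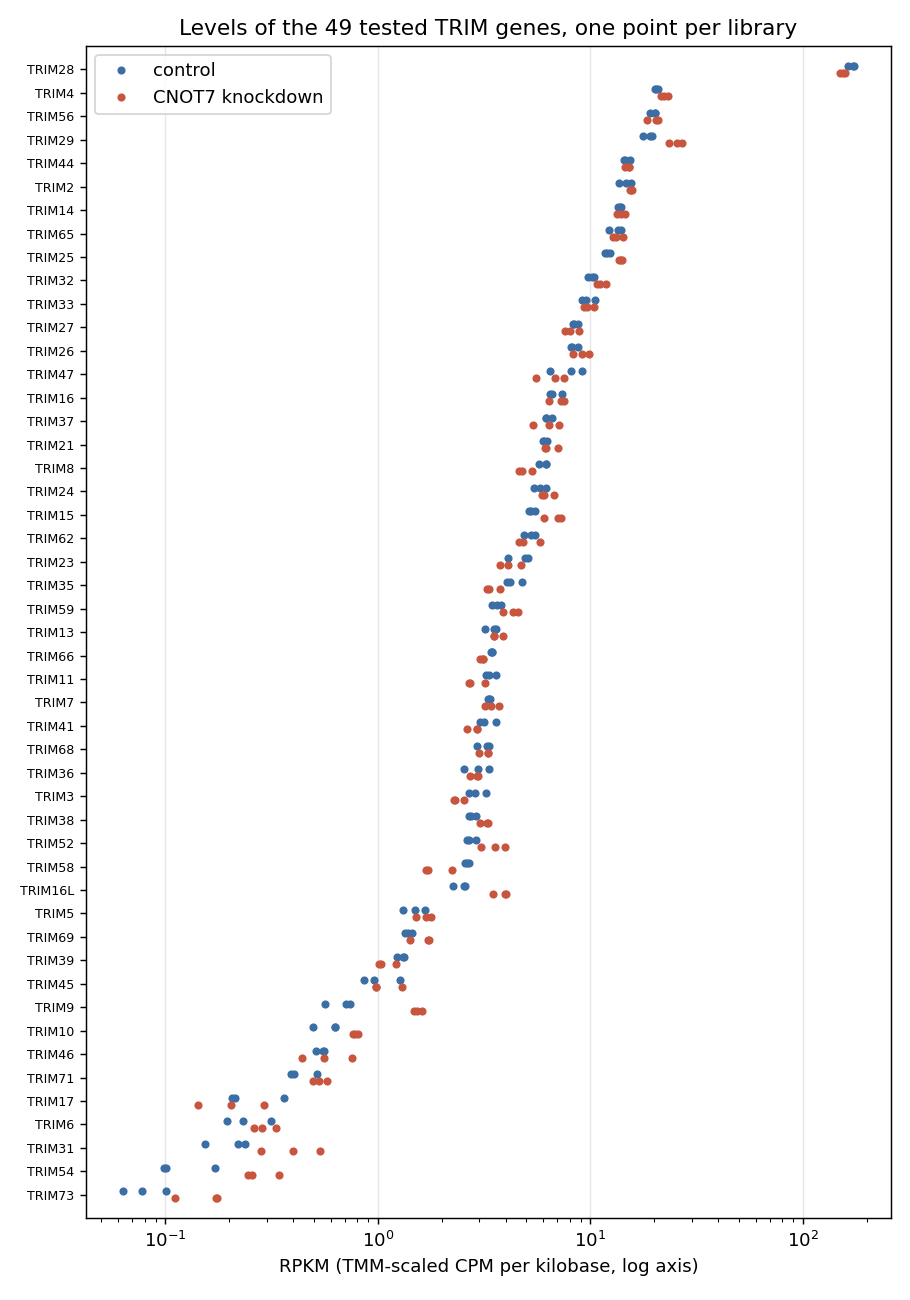
RPKM (log axis) of the 49 tested TRIM genes in each of the 3 control and 3 knockdown libraries, 1 point per library, ordered by control mean. TRIM28 lies far above the rest, and at most genes the points of both groups lie side by side.

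A further 24 members had too few reads for a test. Of these, 14 had no count in any library, which allows up to 3 counts per library, or 0.103 to 0.126 CPM. Chromosome 11 carries 9 of them (TRIM48, TRIM49, TRIM49B, TRIM49C, TRIM51, TRIM64, TRIM64B, TRIM64C and TRIM77), and the other 5 are TRIM40, TRIM42, TRIM43B, TRIM60 and TRIM61. Several of these genes are near-identical copies. TRIM64 shares 68.4% of its 100-base words with TRIM64B or another gene, and TRIM49 shares 69.7% with other genes, chiefly TRIM49C, so their zeros are uncertain where reads could be placed at either copy. The remaining 10 had at most 13 counts in a library. Among them TRIM72, a muscle membrane repair protein, had 2, 0 and 4 counts in the control libraries and 7 in each knockdown library. TRIM34, the neighbour of TRIM5, had no count in the control libraries and 2, 2 and 3 counts in the knockdown libraries. All counts of TRIM34 were thus at or below the limit of 3 counts. TRIM34 shares 79.5% of its 100-base words with other genes, chiefly the read-through gene TRIM6-TRIM34, so its low counts are uncertain too. TRIM22, an interferon-induced antiviral member, had 3, 1 and 2 counts against 2, 3 and 2 counts. Both groups of TRIM22 overlapped.

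With CNOT7 knockdown, 9 TRIM genes were higher and 6 were lower by the edgeR quasi-likelihood test at an adjusted p of 0.05. Hence 30.6% of the tested members were called, beside 25.2% of all tested genes, and for the directions the shares over all genes were 13.3% higher and 11.9% lower. TRIM54 and TRIM73 passed the filter on low counts through the knockdown group alone, and of the other 47 tested members 8 were higher and 6 lower. In 23 of the 49 tested members, TRIM54 and TRIM73 among them, the libraries of both groups did not overlap, against 38.8% of all tested genes. The median log2 fold change was 0.08 over the tested members and 0.00 over all tested genes. With TRIM54 and TRIM73 included, 33 members were above 0 and 16 below. The range ran from -0.48 for TRIM58 to 1.199 for TRIM9. Only 4 of the called members differed by at least 0.5 on the log2 scale. In bulk RNA, fewer cells that express a gene and less of its RNA per cell cannot be told apart.

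**Figure D2:**
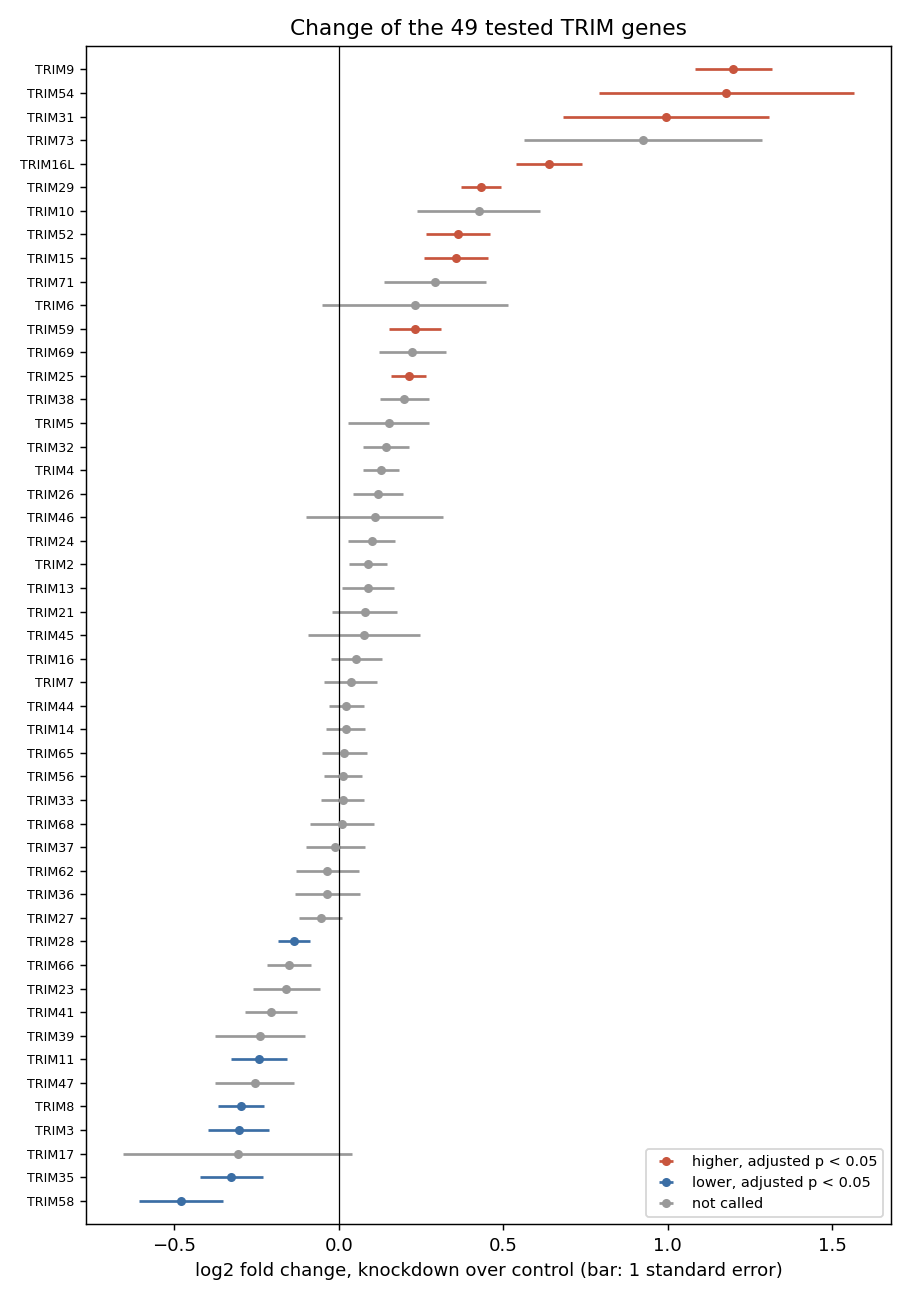
Log2 fold change (knockdown over control) of each of the 49 tested TRIM genes, with bars of 1 standard error, coloured by the edgeR call at an adjusted p of 0.05. The 9 genes called higher reach 1.199 (TRIM9), and the 6 called lower reach -0.48 (TRIM58).

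TRIM21, an antibody receptor of the cytosol that targets bound particles for degradation and also ubiquitinates signalling proteins, lies on chromosome 11 from 4384897 to 4393696 on the minus strand. Its level was 11.71, 11.61 and 12.05 CPM in the control libraries and 11.96, 11.81 and 13.57 CPM in the knockdown libraries. The groups overlapped, and the third knockdown library was the highest of the 6. The means were 11.8 ± 0.231 and 12.4 ± 0.972 CPM (SD, n = 3 each), with a log2 fold change of 0.08 (SE 0.0984, adjusted p = 0.611). The 95% interval of this difference extended from -0.13 to 0.29, or from 0.915-fold to 1.22-fold. A change of TRIM21 mRNA beyond that interval was thus not seen at this depth. The paper reports more stable TRIM21 mRNA after actinomycin D treatment in HCT116 cells with CNOT7 knockdown. It also reports more TRIM21 protein in SW480 cells with CNOT7 knockdown. Neither mRNA decay nor TRIM21 protein was measured here.

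TRIM28 was at 702, 657 and 693 CPM in the control libraries and at 625, 605 and 638 CPM in the knockdown libraries. All knockdown libraries lay below all control libraries. The difference was small, at -0.14 on the log2 scale (SE 0.0486, adjusted p = 0.0496), and it is close to the threshold. The call was lost when any single library except control replicate 2 was left out, with adjusted p between 0.0504 and 0.175. It was also lost with at least 10 counts required in every library (adjusted p = 0.0573) and after removal of the trend of fold change with abundance, where the log2 fold change was -0.06 (adjusted p = 0.412). In the control libraries TRIM28 was 27.7-fold above TRIM21 in RPKM. TRIM21 ranked 17 of 73 members by that measure.

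**Figure D3:**
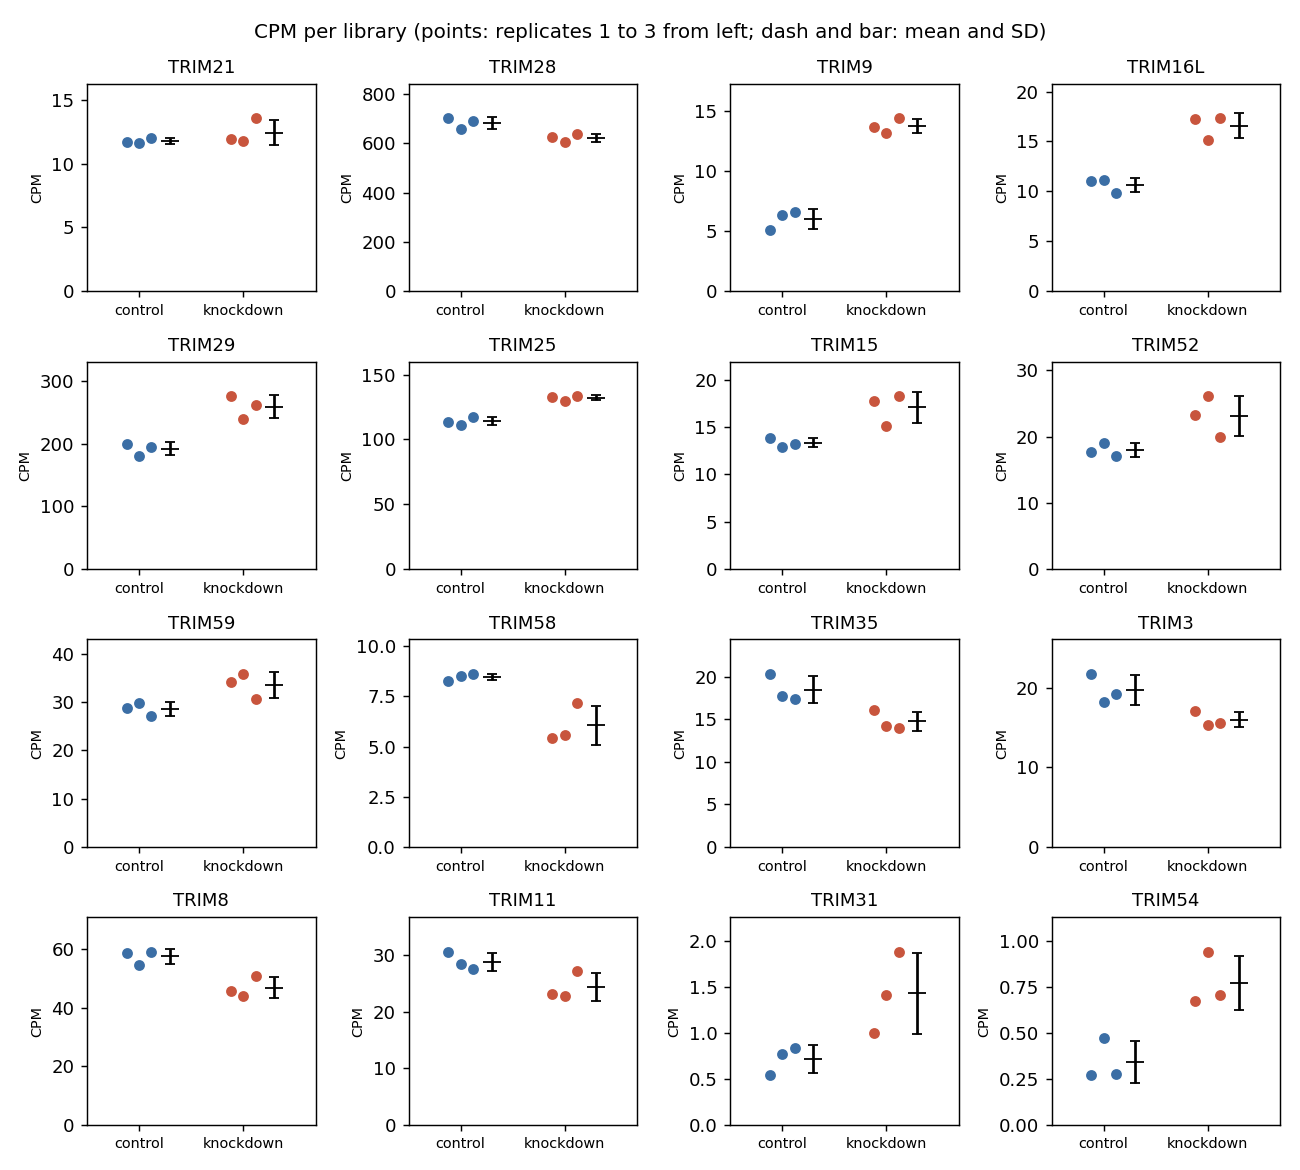
CPM per library of the TRIM genes that the results turn on, with the group mean ± SD (n = 3 each) beside the points. The groups are separated for the called genes, and they overlap for TRIM21.

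Among the genes that rose, TRIM9 changed the most. TRIM9 is a brain-enriched ligase with a COS box, a stretch that binds microtubules, and it is known for shaping axon branches. It was at 5.06, 6.32 and 6.62 CPM in the control libraries and at 13.7, 13.2 and 14.4 CPM in the knockdown libraries, a log2 fold change of 1.199 (SE 0.117, adjusted p = 9.96e-07). All knockdown libraries were above all control libraries by a wide margin. The summed neuronal markers RBFOX3 and SYN1 were between 2.65 and 2.79 CPM in the control libraries and between 2.68 and 3.16 CPM in the knockdown libraries. RefSeq gives for the TRIM9 start (minus strand, chr14:51095056-51095355) and for TRIM58, the gene that fell the most (plus strand, chr1:247856937-247857236), the windows below, shown as the extremes of the family and holding neither GAAANNGAAA nor TATAAA.
TRIM9: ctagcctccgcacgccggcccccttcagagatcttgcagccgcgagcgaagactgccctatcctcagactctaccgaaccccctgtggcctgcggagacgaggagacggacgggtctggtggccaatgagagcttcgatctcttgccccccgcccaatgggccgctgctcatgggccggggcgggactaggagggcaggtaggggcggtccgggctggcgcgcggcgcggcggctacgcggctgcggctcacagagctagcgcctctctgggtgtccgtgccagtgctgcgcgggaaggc
TRIM58: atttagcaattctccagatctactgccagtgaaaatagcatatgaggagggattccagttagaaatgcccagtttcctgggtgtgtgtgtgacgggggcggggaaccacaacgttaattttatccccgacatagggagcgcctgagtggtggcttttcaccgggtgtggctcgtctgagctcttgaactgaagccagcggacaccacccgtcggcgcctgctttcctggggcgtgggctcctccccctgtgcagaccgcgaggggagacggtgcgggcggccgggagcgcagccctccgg
The TRIM9 window has 31 CG dinucleotides and the TRIM58 window has 20. TATAAA, searched on the sense strand, was present in 0 of the 38 tested members with an entry and in 8.99% of all genes with one, expressed or not. With the members that were not tested, it was present in 7 of 56 (12.5%).

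TRIM16L and TRIM29 also rose in every setting. TRIM16L, a shortened relative of TRIM16, was at 11.01, 11.09 and 9.815 CPM in the control libraries and at 17.2, 15.1 and 17.3 CPM in the knockdown libraries (log2 fold change 0.64, SE 0.0994, adjusted p = 1.4e-04). It shares 19.0% of its 100-base words with TRIM16, so part of its reads could be split between both genes. TRIM16, a regulator of stress responses, was at 41.3, 37.1 and 36.6 CPM against 40.9, 36.2 and 42.2 CPM, with a log2 fold change of 0.05 (adjusted p = 0.667) and overlapping groups. TRIM29 was at 200, 180 and 196 CPM in the control libraries and at 276, 239 and 262 CPM in the knockdown libraries (log2 fold change 0.43, SE 0.0611, adjusted p = 5.15e-05). Its groups were separated, and in RPKM it was the most abundant of the genes that rose.

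TRIM31 and TRIM54 rose from low levels. TRIM31, a ligase of the intestine that acts on the antiviral adaptor MAVS, was at 0.545, 0.774 and 0.838 CPM in the control libraries and at 0.993, 1.41 and 1.88 CPM in the knockdown libraries (log2 fold change 0.99, SE 0.313, adjusted p = 0.027). The groups did not overlap, but the call was lost without control replicate 1 (adjusted p = 0.101), without knockdown replicate 3 (adjusted p = 0.138), with DESeq2 (adjusted p = 0.0776) and after removal of the abundance trend (adjusted p = 0.0702). TRIM54, a muscle ligase that stabilises microtubules, was at 0.272, 0.473 and 0.279 CPM against 0.674, 0.942 and 0.705 CPM (log2 fold change 1.18, SE 0.388, adjusted p = 0.0335). Its call was lost in 7 of 11 settings, among them when any single library except control replicate 2 was left out, where adjusted p was between 0.0508 and 0.126. The summed muscle markers were between 0.0778 and 0.399 CPM in the control libraries and between 0.0362 and 0.213 CPM in the knockdown libraries. Antisense reads could enter the TRIM31 count, because 4.92% of its exonic bases overlap TRIM31-AS1 and strandedness is not given in the sources used here.

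The other 4 genes that rose did so by less than 0.5 on the log2 scale. TRIM15, which localises to focal adhesions, was at 13.9, 12.9 and 13.2 CPM against 17.8, 15.1 and 18.3 CPM (log2 fold change 0.36, SE 0.0967, adjusted p = 0.0118). Its call was lost without knockdown replicate 1 (adjusted p = 0.0719) and without knockdown replicate 3 (adjusted p = 0.051). TRIM52, a short member with an acidic RING loop, was at 17.7, 19.1 and 17.2 CPM against 23.24, 26.13 and 20.01 CPM (log2 fold change 0.36, SE 0.0981, adjusted p = 0.0115). Its call was lost without control replicate 3 (adjusted p = 0.0603) and without knockdown replicate 1 (adjusted p = 0.0537), and 28.5% of its exonic bases overlap a transcript on the opposite strand. TRIM59, which is anchored in membranes, was at 28.7, 29.8 and 27.1 CPM against 34.1, 35.8 and 30.6 CPM (log2 fold change 0.23, SE 0.0788, adjusted p = 0.04). Of its exonic bases, 14.5% lie in AC079594.2 on the same strand and 19.9% overlap SMC4 on the opposite strand. TRIM59 lost its call in 6 of 12 settings, among them without control replicate 1 (adjusted p = 0.0847), without control replicate 3 (adjusted p = 0.185), without knockdown replicate 1 (adjusted p = 0.156) and without knockdown replicate 2 (adjusted p = 0.11). TRIM25, the ligase that activates the RNA sensor RIG-I, was at 113, 111 and 117 CPM against 133, 130 and 133 CPM (log2 fold change 0.21, SE 0.0536, adjusted p = 0.00726), and its call was lost only without knockdown replicate 1 (adjusted p = 0.0541). In each of these 4 genes the knockdown libraries all lay above the control libraries.

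Of the 6 genes that fell, TRIM58 changed the most. TRIM58, a ligase of maturing red cells that acts on dynein, was at 8.29, 8.51 and 8.62 CPM in the control libraries and at 5.43, 5.58 and 7.19 CPM in the knockdown libraries (log2 fold change -0.48, SE 0.128, adjusted p = 0.0105). Its groups were separated, although the call was lost without knockdown replicate 1 (adjusted p = 0.0586). TRIM8, which regulates JAK-STAT and NF-kB signalling, was at 58.8, 54.8 and 59.1 CPM against 45.7, 44.1 and 50.9 CPM (log2 fold change -0.30, SE 0.0701, adjusted p = 0.00487), and it kept its call in all 12 settings. The summed blood markers (PTPRC, CD3E, MS4A1 and CD68) were at most 0.544 CPM in any library. These are white cell genes, so the sum does not bear on red cell expression. Of the exonic bases of TRIM8, 14.1% overlap a transcript on the opposite strand.

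TRIM35, TRIM3 and TRIM11 also fell, and each lost its call in at least 2 settings. TRIM35, which binds the glycolytic enzyme PKM2, was at 20.4, 17.8 and 17.4 CPM against 16.1, 14.2 and 14.0 CPM (log2 fold change -0.33, SE 0.0958, adjusted p = 0.0185). Its call was lost without control replicate 1 (adjusted p = 0.103) and without knockdown replicate 3 (adjusted p = 0.0557). TRIM3, an NHL protein of the brain, was at 21.8, 18.2 and 19.3 CPM against 17.1, 15.4 and 15.5 CPM (log2 fold change -0.30, SE 0.0928, adjusted p = 0.0233). Its call was lost without control replicate 1 (adjusted p = 0.132), control replicate 3 (adjusted p = 0.0537) or knockdown replicate 3 (adjusted p = 0.0562). TRIM11, which promotes clearance of misfolded proteins, was at 30.6, 28.5 and 27.5 CPM against 23.2, 22.8 and 27.2 CPM (log2 fold change -0.24, SE 0.0851, adjusted p = 0.0461). Its lowest control and highest knockdown libraries were close to each other, and leaving out any single library except knockdown replicate 3 ended its call, with adjusted p between 0.0568 and 0.166. In all 3 genes the knockdown libraries lay below the control libraries.

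Of the 34 tested members without a call, 26 had a 95% interval within 0.5 of 0 on the log2 scale. The smallest changes were those of TRIM37, a ligase that limits centriole formation, at -0.01, TRIM68 at 0.01, and TRIM33, a PHD-bromodomain regulator of TGF-beta signalling, at 0.01. The sign of these 3 and of TRIM56 (0.01) changed between settings. TRIM4 was at 98.4, 99.5 and 102 CPM against 106, 113 and 109 CPM, with separated groups but no call (log2 fold change 0.13, SE 0.0553, adjusted p = 0.0986). After removal of the abundance trend TRIM4 was called higher (log2 fold change 0.18, adjusted p = 0.0222). TRIM44 was at 188, 200 and 190 CPM against 199, 199 and 190 CPM, and its groups overlapped (log2 fold change 0.02, adjusted p = 0.799).

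Each member was placed in 1 class by C-terminal domain, and COS-box members were kept apart whether or not they also carry a SPRY domain. The SPRY class was the largest, with 42 members. Of these, 25 were tested, 3 were higher and 3 were lower, with a median log2 fold change of 0.04. The class without a C-terminal domain had 7 of 10 tested, with 3 higher and 1 lower. Its median was 0.36, or 0.19 without TRIM73. The COS-box class had 4 of 8 tested, with TRIM9 and TRIM54 higher and a median of 0.64, or 0.11 without TRIM54. The 4 NHL and the 4 PHD-bromodomain genes were all tested, and in each class 1 gene was lower (TRIM3 and TRIM28) and 0 were higher. Neither class had a gene higher at an unadjusted p under 0.05 or with DESeq2. The NHL median was 0.12 and the PHD-bromodomain median was -0.06. The 5 genes with other C-terminal domains had 1 higher (TRIM59) and a median of 0.08. TRIM54 and TRIM73 were left out for the second values because they passed the filter through the knockdown group alone. With DESeq2, 1 COS-box gene, 2 genes without a C-terminal domain and 0 of those with other domains were higher, whereas 3 SPRY genes were higher and 3 lower. These counts are small, and 25.2% of all tested genes were called.

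**Figure D4:**
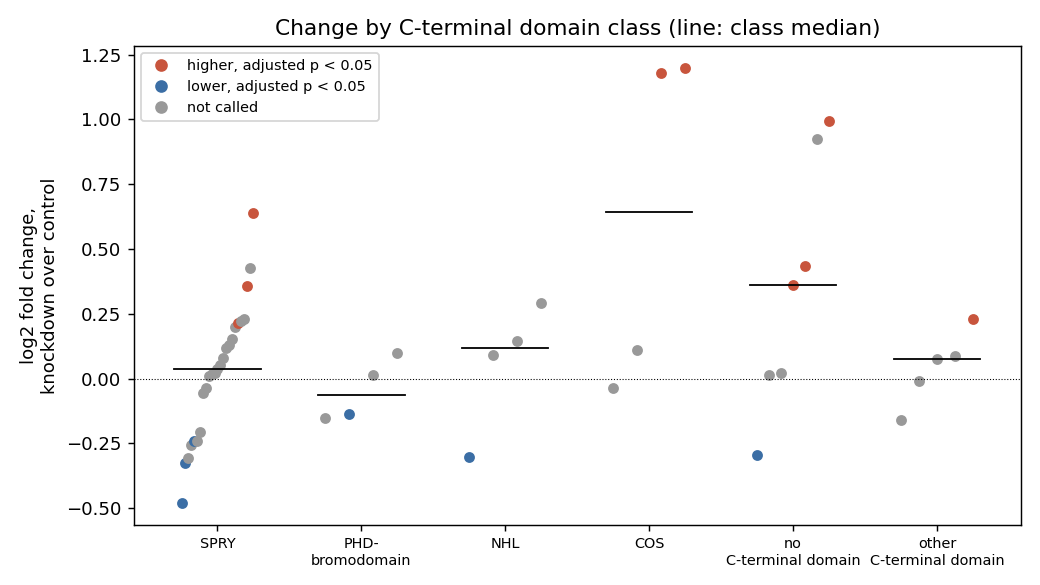
Log2 fold change (knockdown over control) of tested TRIM genes by C-terminal domain class, with each gene in 1 class. There is 1 point per gene, and the line is the class median. Medians run from -0.06 (PHD-bromodomain, 4 genes) to 0.64 (COS box, 4 genes, or 0.11 without TRIM54, which passed the filter through the knockdown group alone), and the 25 SPRY genes centre on 0.04.

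The 12 members assigned to innate antiviral defence were TRIM5, TRIM6, TRIM14, TRIM21, TRIM22, TRIM25, TRIM26, TRIM34, TRIM38, TRIM56, TRIM65 and TRIM69. Of these, 10 were tested and all 10 had a log2 fold change above 0, from 0.01 for TRIM56 to 0.23 for TRIM6, with a median of 0.14. Over all tested genes, 50.7% were above 0. TRIM25 was the member called, which is 10% of the 10, beside 25.2% of all tested genes. By edgeR 0 were lower, also at an unadjusted p under 0.05 and with DESeq2, and 3 were higher at an unadjusted p under 0.05. TRIM38, a regulator of innate signalling, was at 26.0, 25.4 and 27.2 CPM against 30.6, 31.2 and 28.5 CPM, with separated groups and no call (log2 fold change 0.20, SE 0.075, adjusted p = 0.0601). The sign of TRIM56 depended on the setting. This group was chosen with earlier results of these data known, so the shared direction of its members is descriptive. TRIM8 (log2 fold change -0.30) and TRIM31 (0.99), whose roles in signalling were named above, were not assigned to it.

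Calls did not cover whole clusters of neighbouring TRIM genes. On chromosome 6, TRIM31 (30102897 to 30113106, minus strand) and TRIM15 (30163206 to 30172696, plus strand) rose. TRIM10 (30151945 to 30160934, minus strand), which lies between them, was at 1.75, 2.24 and 2.23 CPM against 2.87, 2.75 and 2.72 CPM (log2 fold change 0.43, SE 0.187, adjusted p = 0.108). All TRIM10 knockdown libraries lay above its control libraries, but it was not called. TRIM40 (30136108 to 30148735, plus strand), also between TRIM31 and TRIM15, had no count in any library. TRIM26, an antiviral ligase further along, had a log2 fold change of 0.12 (adjusted p = 0.282), and TRIM39, a regulator of apoptosis, had one of -0.24 (adjusted p = 0.226). The knockdown libraries of TRIM39 all lay below its control libraries, whereas the groups of TRIM26 overlapped. TRIM39 shares 24.7% of its 100-base words with the read-through gene TRIM39-RPP21. On chromosome 5, TRIM52 (181254417 to 181261139, minus strand) rose. TRIM41, which starts at 181222499, had a log2 fold change of -0.20 (adjusted p = 0.0673), with all knockdown libraries below the control libraries. TRIM7, which starts at 181193924, had a log2 fold change of 0.04 (adjusted p = 0.788) and overlapping groups.

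CNOT7 removes poly(A) tails, and 3′ untranslated regions carry the motifs through which RNA-binding proteins bring CCR4-NOT to an mRNA. The Pumilio-type motif TGTANATA, searched on the sense strand, occurred in 10 of the 49 tested members (20.4%) and in 25.2% of 13393 tested genes with such a region. The AU-rich motif ATTTATTTA, also searched on the sense strand, occurred in 2 of the 49 (4.08%) and in 6.35% of those genes. The TRIM21 region of 383 bases held neither set of letters. Among the called members, TRIM52 had TGTANATA, which starts at base 880 of its 3′ untranslated region (GENCODE 29, GRCh38) and is shown in capitals with 10 bases on either side.
TRIM52: aattaatgacTGTATATAtcaaacttca

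Genes of related function were examined from lists drawn up by known function. Earlier results of these data were known when the lists were made, so their counts are descriptive. Of 7 relatives with the tripartite motif under other names, 5 were tested and 1 was called. This was MEFV, which encodes pyrin, at 10.55, 12.64 and 12.01 CPM against 17.1, 15.7 and 17.4 CPM (log2 fold change 0.51, SE 0.0984, adjusted p = 9.54e-04). Of 32 ubiquitin E1 and E2 genes, 2 were higher and 5 lower, and 21.9% were called beside 25.2% of all tested genes. UBE2J1, an E2 of the endoplasmic reticulum, rose (log2 fold change 0.35, adjusted p = 3.15e-04). UBE2Q2 (-0.37, adjusted p = 0.00215), UBE2E3 (-0.29, adjusted p = 0.0022) and UBE2A (-0.28, adjusted p = 0.00287) fell. The median of this list was -0.05.

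Of 17 corepressor partners of TRIM28, 16 were tested, 5 were lower and 0 higher, also at an unadjusted p under 0.05 and with DESeq2. The median log2 fold change was -0.06. CBX1, a heterochromatin protein that TRIM28 binds, fell from 94.6, 90.8 and 94.1 CPM to 76.9, 72.0 and 73.5 CPM (log2 fold change -0.33, SE 0.0575, adjusted p = 4.08e-04). The deacetylase HDAC2 (-0.26, adjusted p = 0.00541), SMARCAD1 (-0.24, adjusted p = 0.0207) and the remodeller CHD3 (-0.20, adjusted p = 0.0272) were lower too. The share called, all of it lower, was 31.2%. Of all tested genes, 25.2% were called in either direction and 11.9% were lower. Leaving out control replicate 3 reduced the 5 calls to 2, and leaving out control replicate 1 or knockdown replicate 1 reduced them to 3.

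Of 19 genes of RNA and DNA sensing, on which antiviral TRIM proteins act, 17 were tested, with 4 lower and 0 higher by edgeR. The share called was 23.5%, beside 25.2% of all tested genes, of which 11.9% were lower. With DESeq2 0 were higher and 5 lower, and at an unadjusted p under 0.05 1 was higher and 5 lower. TMEM173, which encodes the DNA-sensing adaptor STING, fell from 33.3, 30.8 and 31.4 CPM to 26.6, 23.6 and 24.3 CPM (log2 fold change -0.36, SE 0.077, adjusted p = 0.00245). IKBKE (-0.31, adjusted p = 0.00686), TRAF3 (-0.17, adjusted p = 0.0261) and TRAF6 (-0.22, adjusted p = 0.049) were lower as well. RIG-I, the sensor that TRIM25 acts on, listed as DDX58, was at 15.3, 18.4 and 18.2 CPM against 18.9, 23.7 and 17.5 CPM, with overlapping groups (log2 fold change 0.21, adjusted p = 0.188). The 4 calls were reduced to 1 without control replicate 3 and to 2 without knockdown replicate 1.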

How the data were processed

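The deposited table held, per the labels, raw read counts per gene for 6 libraries, made by the authors with TRIzol RNA, NEBNext Ultra libraries, and the tools their processing notes name (CASAVA 1.8, fastp, HISAT2 2.0.5, featureCounts 1.5.0-p3, DESeq2 1.20.0) on GRCh38. Its gene set matched GENCODE 29. Genes kept by edgeR's filterByExpr were fitted with edgeR 4.0.16 in R 4.3.3 (TMM factors, quasi-likelihood test of 3 against 3 libraries without covariates, Benjamini-Hochberg adjustment over 17574 genes, threshold 0.05, no fold minimum). The standard error is the log2 fold change divided by the root of F, and intervals are 95%. CPM are TMM-scaled, and RPKM are these CPM per kilobase. Alternatives were DESeq2 1.42.0, RLE factors, filters on low counts, a replicate block, removal of the abundance trend (limma 3.58.1 cyclic loess), and leaving out each library. The script was tested on simulated data. Genes named are TRIM21, TRIM28, all called members, the 5 most abundant, the 3 least changed, and up to 4 called genes per list. TRIM2, TRIM38, TRIM10, TRIM16, TRIM26, TRIM39, TRIM41, TRIM7, TRIM72, TRIM34, TRIM22 and DDX58 were named after their values were seen. Members, lists, domain classes and the innate group were chosen with earlier results of these data known. Each library total is a single value and is given without an error.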

Additional observations from a re-analysis of the deposited data

How the results depend on the processing

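The 12 alternatives kept the direction and the call of CNOT7, TRIM9, TRIM16L, TRIM29 and TRIM8, and left TRIM21 without a call (log2 fold change 0.0066 to 0.11, adjusted p 0.48 to 0.975). The other 11 called members lost their call in some settings but kept their direction. TRIM28 lost its call with at least 10 counts in every library (-0.13) and without the abundance trend (-0.061), and ranged from -0.17 to -0.12 when a library was left out. Members called higher ranged from 4 to 9 and members called lower from 2 to 7 over the libraries left out, with 4 higher without knockdown replicate 1, 2 lower without control replicate 1, and 3 lower without control replicate 3 or knockdown replicate 1. The replicate block, in which same-numbered libraries share a term, gave 13 higher and 9 lower members, 2 relatives, 15 E1 and E2 genes, 9 sensing genes and 3306 lower genes in all, with TRIM4 called higher (0.13, adjusted p 0.0115). The numbers were not shown to pair the libraries, because same-numbered libraries correlated at 0.023, 0.153 and -0.015 in their deviations. Without the abundance trend, 3 corepressor partners and 2 sensing genes were called. Over the libraries left out, 1 to 2 relatives, 5 to 10 E1 and E2 genes, 2 to 5 corepressor partners, 1 to 6 sensing genes, and 1367 to 2219 lower genes were called. Signs near 0 turned: without a filter TRIM33 was at -0.0039, TRIM56 at -0.0043 and TRIM68 at -0.0078, with DESeq2 TRIM68 was at -0.0019, and without the abundance trend TRIM68 was at -0.028 and TRIM37 at 0.0096. With a library left out TRIM33 ranged from -0.036 to 0.068, TRIM37 from -0.109 to 0.087, TRIM56 from -0.026 to 0.063 and TRIM68 from -0.047 to 0.047. TRIM54 gave no value with at least 10 counts in every library. The cause was not tested. Depth limits members below about 1 CPM.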
